A study of Mus musculus with 4 samples.

Results

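Foxp3+ regulatory T cells (Tregs) infiltrating B16 melanoma were picked out of 2 single-cell RNA-seq experiments by their own transcripts. A cell was taken as a Treg when it held at least 1 UMI of *Foxp3*, at least 3 UMIs of the CD3 genes *Cd3d*, *Cd3e* and *Cd3g*, at most 3 UMIs of the myeloid genes *C1qa*, *C1qb* and *Lyz2* and fewer than 3 UMIs of the cycling genes *Mki67* and *Top2a*. A UMI is a tag that marks 1 captured RNA molecule. The rule gave 162 cells out of 14137 barcodes, which was 1.39% of the cells that passed the quality limits and 6.48% of the T cells. They were set against 158 conventional CD4 T cells, defined by the same limits with no *Foxp3* UMI and at least 1 *Cd4* UMI. Since measured *Foxp3* chose the cells, *Foxp3* itself is given only as a description.

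The cells came from wild-type C57BL/6 mice injected subcutaneously with B16-F10 melanoma cells that make the cytoplasmic green fluorescent protein ZsGreen (ZsG) when doxycycline (dox) is given. The tumor line was a single clone, chosen for its brightness. Every group received dox in the drinking water for the last 4 days, and tumors were collected on day 8. CD45+ leukocytes and, in a separate experiment, CD45+TCRb+ T cells were divided by a sort gate on green fluorescence, and the ZsG-positive library of each pair held cells that had picked up tumor protein. In the CD45 sort the positive gate was set on bright cells, so most lymphocytes carrying some ZsG were collected on the negative side, and that pair does not set Tregs with tumor protein against Tregs without it. There was 1 library per condition. The sources used here do not give how many mice were pooled in a library, so the values carry no spread between animals.

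Tregs are CD4 T cells that restrain other immune cells, and the transcription factor Foxp3 is needed to keep them in that state. They carry the high-affinity IL-2 receptor chain CD25 (*Il2ra*), the inhibitory receptor CTLA-4 and several receptors of the TNF receptor family, and those of thymic origin usually carry the transcription factor Helios (*Ikzf2*). Tregs in tissues can also make amphiregulin (*Areg*), a growth factor of tissue repair. In tumors Tregs are known for dampening anti-tumor T cell responses.

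The ZsG-negative and ZsG-positive libraries of the CD45 sort held 5437 and 5168 barcodes with 47537541 and 56510578 UMIs, and those of the T cell sort held 1136 and 2396 barcodes with 10030971 and 22100220 UMIs. Of the Tregs, 36 came from the CD45 sort ZsG-negative library, 4 from the CD45 sort ZsG-positive library, 28 from the T cell sort ZsG-negative library and 94 from the T cell sort ZsG-positive library. In the same order the conventional CD4 T cells numbered 54, 3, 58 and 43. Tregs were the deeper cells in every library, with median totals of 9270.5, 8698.5, 5795 and 6128 UMIs against 6228.5, 4509, 4417.5 and 4126 UMIs in conventional cells. Both gates of a sort shared 6 barcode sequences in the CD45 sort and 1 in the T cell sort, and no Treg had one of them. In the T cell experiment a file name and the library names put the gates in opposite orders, and the library of 2396 barcodes was taken as ZsG-positive, which follows the file name. If that order were wrong, each ZsG comparison of the T cell sort would turn round.

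The label held up against its markers. *Ikzf2* was present in 154 of the 162 cells, *Il2ra* in 110 and *Areg* in 60, and 4 cells had none of the 3. A *Foxp3* UMI was found in 0.364% to 1.12% of CD8 T cells in the libraries where any had one, in 1 of 1820 NK cells of the CD45 sort ZsG-negative library and in at most 0.211% of myeloid cells, against 14.7% to 57.1% of *Cd4*-positive T cells. The median depth of the CD8 T cells was 6541 UMIs or more in each library, so that background was low at a depth like that of the Tregs. *Cd4* was seen in 89 of the Tregs (54.9%) and *Cd8a* in 14 (8.64%), with both in 6. Of the B cell genes, *Cd79a* and *Ms4a1* had no UMI in any Treg, but the immunoglobulin genes *Ighm* and *Igkc* were present. *Ighm* had 114 and 4 UMIs in Tregs of the CD45 sort ZsG-negative and ZsG-positive libraries, against 57 and 1 in conventional cells. In the T cell sort it had 41 and 233 UMIs against 15 and 36. Both immunoglobulin genes were higher in Tregs than in conventional cells in the test given below.

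A group of 13 Tregs also carried transcripts of antigen-presenting cells. Each had between 11 and 702 UMIs summed over the MHC class II genes *H2-Aa*, *H2-Ab1* and *H2-Eb1* and the plasmacytoid dendritic cell gene *Siglech*. In 3 of them all of these UMIs were of *Siglech*, and in 5 none was, while 119 of the other 149 Tregs had none of the 4 genes. The 13 cells were large: 5 cells of the CD45 sort ZsG-negative library had a median of 20060 UMIs against 8016 in the rest, and 8 cells of the T cell sort ZsG-positive library had a median of 16746.5 against 5709.5. *Siglech* reached 3 UMIs in 8 of them and *Fscn1*, a gene of mature dendritic cells, in 3. All 13 held *Ikzf2* as well. They made up 25.9% and 20.2% of the Treg UMIs of those libraries. No doublet caller was run, and whether these droplets held 2 cells was not tested. Each result below that rests on them is given with and without the cells over 5 such UMIs, which include 4 conventional cells, a limit chosen after the values were seen. They are called the cells over the limit.

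**Figure D1:**
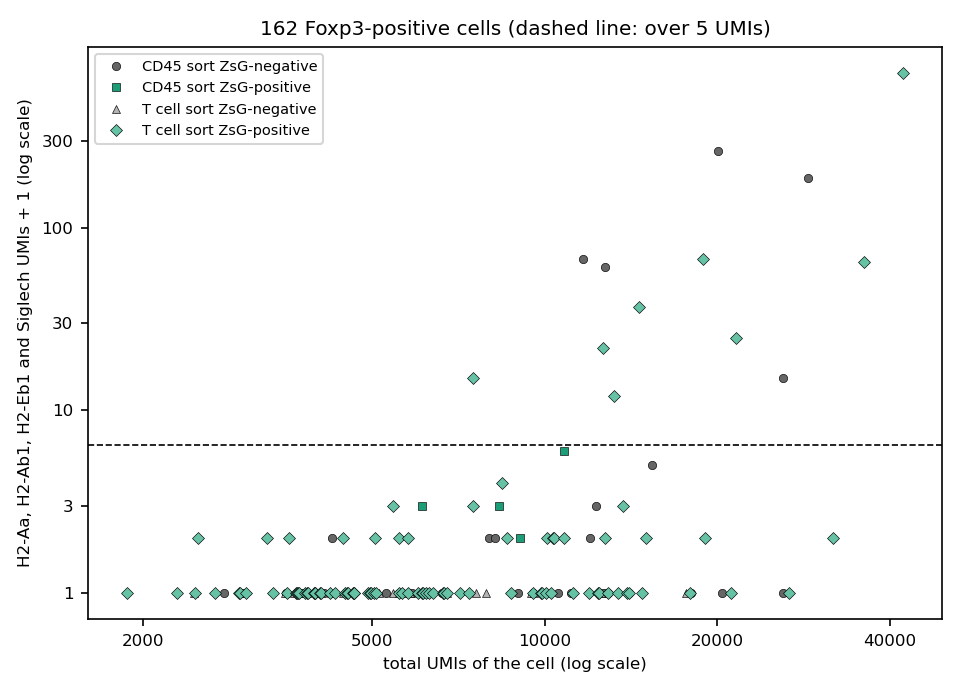
Each point is 1 of the 162 Tregs, with its total UMIs on the x axis and its summed UMIs of *H2-Aa*, *H2-Ab1*, *H2-Eb1* and *Siglech* plus 1 on the y axis, both on log scales. The 13 cells above the dashed line belonged to the CD45 sort ZsG-negative library (5) and the T cell sort ZsG-positive library (8), and most of them lay to the right, at high total UMIs.

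The marker genes set the Tregs apart in each library with enough cells. Levels are UMIs summed over the cells of a group and divided by the group's total, as counts per 1e+06 UMIs (CPM), with exact 95% Poisson intervals that cover counting error only. *Foxp3* (GRCm38, chrX:7573644-7595245, plus strand) stood at 285 CPM (234 to 343) in the CD45 sort ZsG-negative library, 204 CPM (82.0 to 420) in the CD45 sort ZsG-positive library, 422 CPM (333 to 529) in the T cell sort ZsG-negative library and 332 CPM (293 to 373) in the T cell sort ZsG-positive library. *Ikzf2* (chr1:69531214-69687245, minus strand) stood in the same order at 1096.3, 1835.6, 1294.6 and 1211.1 CPM in Tregs and at 135, 0, 85.8 and 102 CPM in conventional cells. The Treg values of *Ikzf2* lay above the conventional values in all 4 libraries, and the intervals of both T cell libraries overlapped.

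*Areg* (chr5:91139599-91148432, plus strand) was measured at 634 CPM (557 to 719), 678 CPM (563 to 809) and 599 CPM (547 to 654) in Tregs of the CD45 sort ZsG-negative, T cell sort ZsG-negative and T cell sort ZsG-positive libraries. Conventional cells had 12, 6 and 0 *Areg* UMIs there, and in the T cell sort ZsG-positive library Tregs were thus at least 43.2-fold higher, with 3 counts taken for the empty sum. The 4 Tregs of the CD45 sort ZsG-positive library had no *Areg* UMI, which allows up to 107 CPM. *Il2ra* (chr2:11642807-11693193, plus strand) was measured at 204, 175, 306 and 341 CPM in Tregs and at 24.9, 0, 30.9 and 74.0 CPM in conventional cells. Amphiregulin RNA was thus abundant but uneven, in 60 cells, while Helios RNA was in nearly every Treg.

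**Figure D2:**
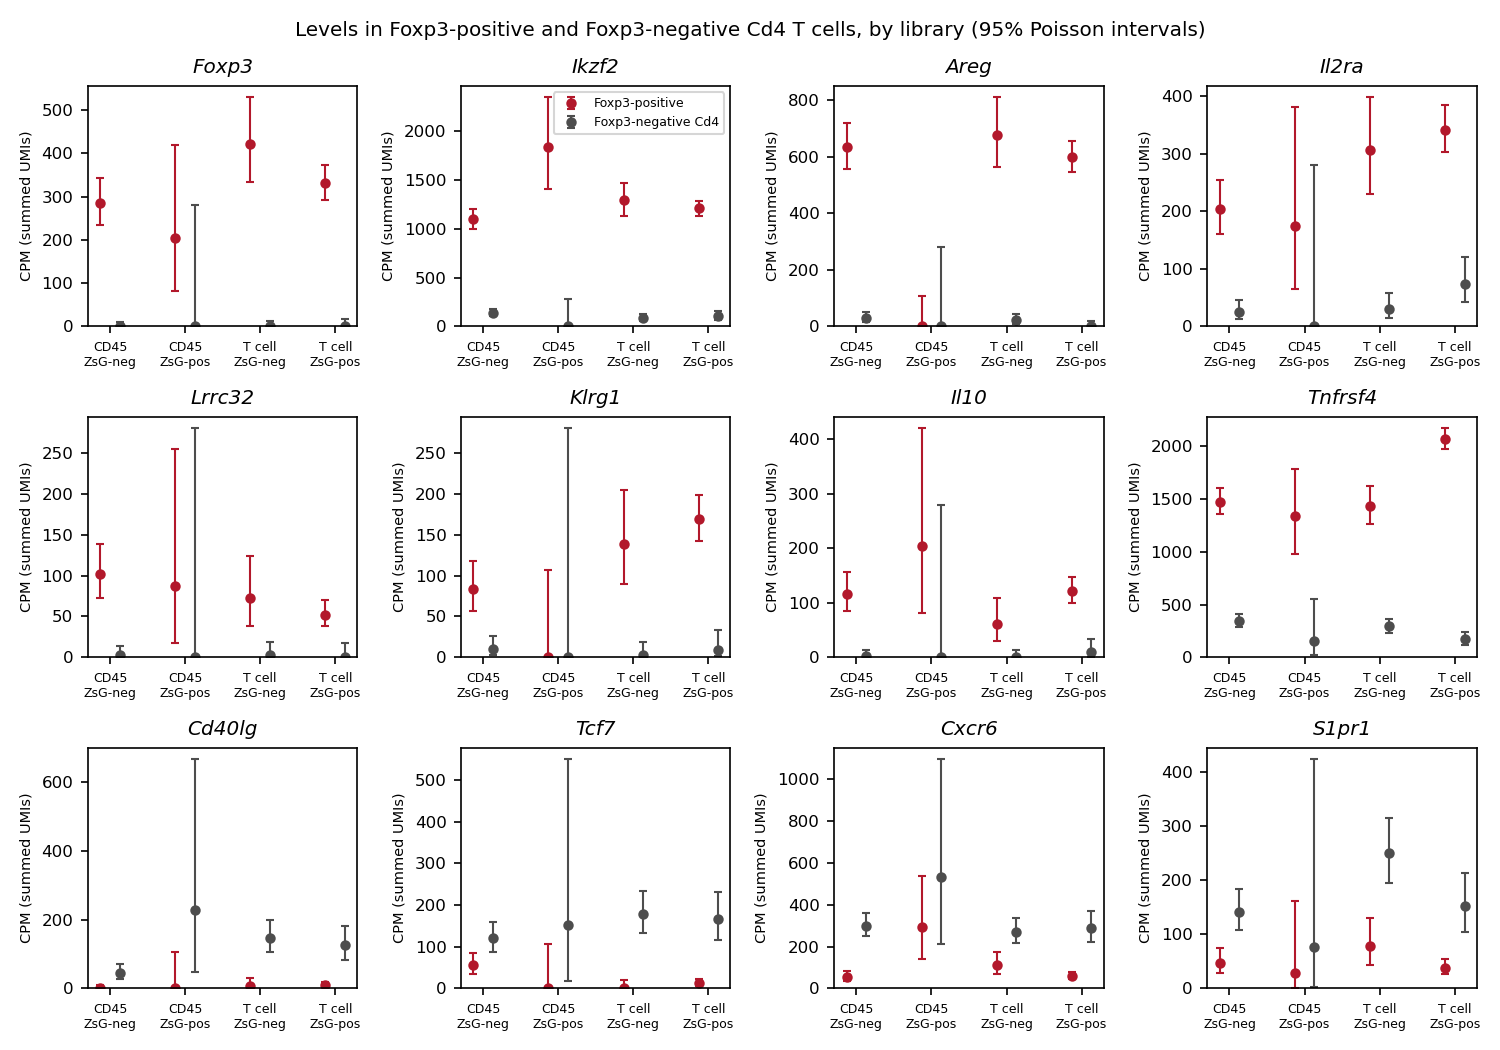
Each panel gives 1 gene's level in CPM on a linear y axis by library on the x axis, for Tregs (red) and conventional CD4 T cells (grey), with exact 95% Poisson intervals of the summed UMIs. *Ikzf2* and *Il2ra* were above the conventional cells in every library, *Areg* in all but the CD45 sort ZsG-positive library, where both groups had no UMI, and *Cd40lg* and *Tcf7* were below. The CD45 sort ZsG-positive library rests on 4 Tregs and 3 conventional cells.

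Pooled over all libraries, a single *Foxp3* UMI already separated the cells by *Ikzf2*, *Ctla4* and *Tnfrsf4*. The 44 Tregs with 1 *Foxp3* UMI, the 35 with 2 and the 83 with 3 or more had 1216.1, 1229.5 and 1192.4 CPM of *Ikzf2*, against 110 CPM in the cells with none. *Ctla4* followed with 1203.4, 1024.6 and 1392.4 CPM against 284, and *Tnfrsf4* with 1605.5, 1741.8 and 1915.7 CPM against 285. Their median depths were 5442, 6147 and 7611 UMIs. *Areg* did not follow the *Foxp3* steps, at 642, 1351.2 and 296 CPM. In the CD45 sort ZsG-negative library the 11 Tregs with 1 *Foxp3* UMI had 891 CPM of *Ikzf2* against 135 CPM in cells with none. The gap there was smaller for *Ctla4*, at 594 against 219 CPM, and *Tnfrsf4*, at 676 against 346 CPM. *Tcf7* was at 133 CPM (70.9 to 228) against 120 CPM, so it did not separate them. At the other edges of the rule, 4 Tregs held exactly 3 CD3 UMIs with 1090.1 CPM of *Ikzf2*, 3 held exactly 3 myeloid UMIs with 763 CPM, and 11 held 2 cycling UMIs with 1075.9 CPM, while the 9 cells just outside with 3 cycling UMIs had 1098.5 CPM.

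Tregs and conventional CD4 T cells of the same library were then compared with edgeR's quasi-likelihood test over the 3 libraries with at least 10 cells in both groups, with the library as a block. Beside *Areg*, the largest rises were those of *Lrrc32*, *Itgb8* and *Il10*, and the largest falls those of *Cd40lg*, *Xcl1* and *Tnfsf11*. Of 4125 genes tested, 106 rose (2.57%) and 89 fell (2.16%) at an adjusted p under 0.05 and a fold of at least 2. Without the cells over 5 class II and *Siglech* UMIs, 94 rose and 73 fell of 3686 tested, and 154 of the 195 genes were called in both fits. The libraries differ in sort and gate and are not replicate animals, so the p-values measure only the spread of the difference between libraries. Without the CD45 sort ZsG-negative library the counts dropped to 18 and 12. Of the genes named by size, *Lrrc32* (log2 fold 4.74, adjusted p 0.0671), *Neb* (3.80), *Ikzf4* (2.86), *Tnfsf11* (-3.24), *Tnfsf8* (-4.44) and *Pde3b* (-3.72) then no longer passed, and neither did many genes with smaller folds, *Gzmb*, *Cd27*, *Capg* and *Klf2* among them. *Itgb8* and *Ehd3* were not tested in that setting. *Pde3b* was lost without any 1 of the 3 libraries. *Areg*, *Ikzf2* and *Il2ra*, the markers that define the label, are among the 106. Their own values are those above, and they are also counted in the gene lists that hold them.

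**Figure D3:**
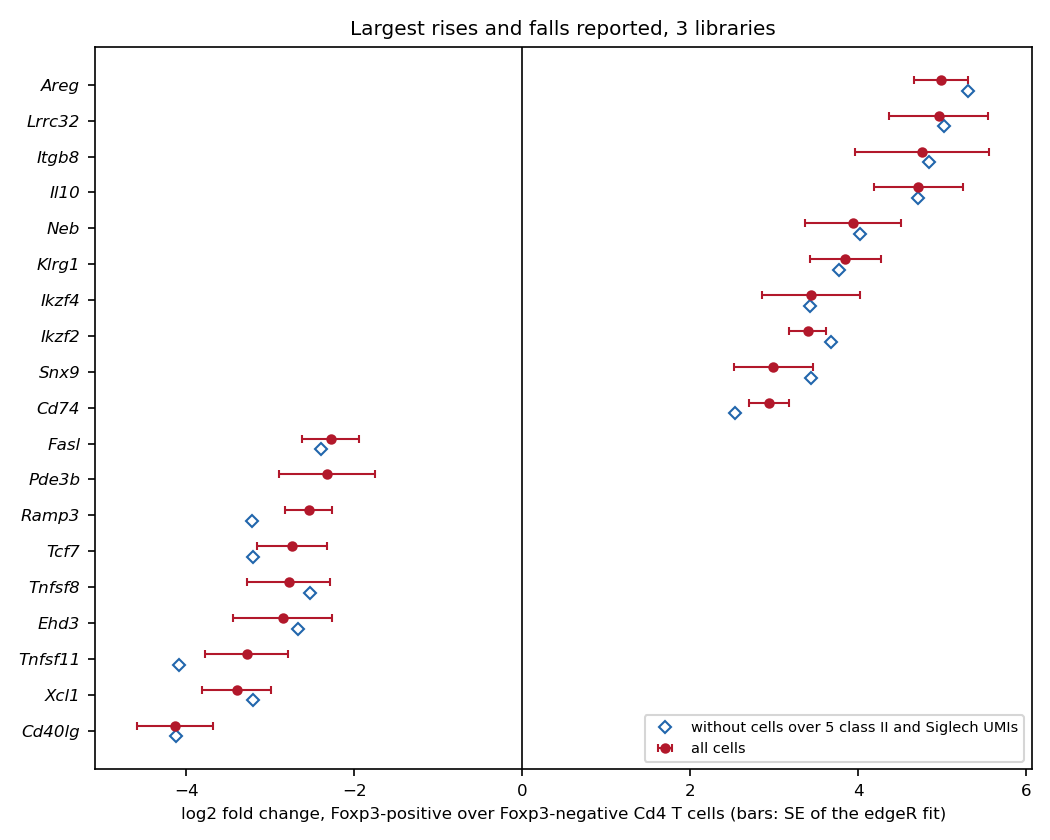
Points give the log2 fold change of Tregs over conventional CD4 T cells over 3 libraries for the 10 largest rises and 9 of the largest falls, with bars of 1 SE, and open diamonds the same fit without cells over 5 class II and *Siglech* UMIs. The folds ran from 4.99 for *Areg* to -4.13 for *Cd40lg*, and no gene changed side when those cells were left out; *Pde3b* was not tested there.

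Among the Treg identity genes, 11 of the 14 tested rose and none fell, *Ikzf2* and *Il2ra* included, with a median log2 fold of 1.99 against -0.02 over all genes. *Lrrc32*, which encodes GARP, the surface protein that holds latent TGF-beta, was measured in Tregs at 102, 72.2 and 52.2 CPM in the CD45 sort ZsG-negative, T cell sort ZsG-negative and T cell sort ZsG-positive libraries, against 2.49, 3.43 and 0 CPM in conventional cells. No library overlapped, and its log2 fold was 4.96 (SE 0.59, adjusted p 1.18e-06). *Itgb8*, the integrin chain that frees TGF-beta from that complex together with the chain encoded by *Itgav*, rose with a log2 fold of 4.76 (SE 0.80, adjusted p 0.000203) from 1, 0 and 0 UMIs in conventional cells to 14, 7 and 38 in Tregs. *Itgav* rose from 32.4, 48.1 and 32.4 CPM to 136, 167 and 215 CPM (log2 fold 2.10, adjusted p 7.23e-06), whereas the receptor gene *Tgfbr2* fell (-1.28, adjusted p 0.00374). *Ikzf4*, which encodes the Ikaros family factor Eos, had 16, 10 and 55 UMIs against 0, 3 and 1 (log2 fold 3.44, adjusted p 0.000239). *Izumo1r*, the folate receptor FR4, and *Capg*, an actin-capping protein, rose with log2 folds of 1.99 and 1.36. *Socs2*, a feedback inhibitor of cytokine signaling, rose in the fit of all cells (1.22, adjusted p 0.0311) and did not pass without the cells over the limit (0.99, adjusted p 0.165). *Nrp1*, a surface protein of many thymic Tregs, did not pass, at 47.0, 61.1 and 24.3 CPM in Tregs and 62.3, 41.2 and 41.6 CPM in conventional cells.

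*Ctla4* and most of the tested TNF receptors rose. *Ctla4* was at 924, 1377.9 and 1395.8 CPM in Tregs of the 3 libraries and at 219, 378 and 291 CPM in conventional cells (log2 fold 2.00, SE 0.19, adjusted p 2.21e-08). Of the TNF receptor family, 5 of 7 tested genes rose and none fell, with a median log2 fold of 1.43. *Tnfrsf4*, which encodes OX40, was at 1472.2, 1433.5 and 2067.5 CPM against 346, 292 and 171 CPM (log2 fold 2.53, adjusted p 8.03e-09). *Tnfrsf9* (4-1BB) was at 679, 750 and 961 CPM against 112, 72.1 and 254 CPM (2.48, adjusted p 1.57e-08). *Tnfrsf18* (GITR), *Tnfrsf1b* (TNFR2) and *Cd27* rose with log2 folds of 1.41, 1.45 and 1.43. For all 3 of the receptors given by library, every Treg value lay above every conventional value. The IL-2 list, by contrast, split: *Il2ra*, the inhibitor gene *Cish* (1.02, adjusted p 0.00604) and *Socs2* rose while *Bcl2*, an inhibitor of apoptosis (-2.07, adjusted p 0.00144), and *Il7r*, the IL-7 receptor (-1.26, adjusted p 0.000419), fell, and *Il2rb* did not pass at 439, 361 and 362 CPM in Tregs against 364, 278 and 268 CPM.

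The windows just before the starts of 3 of these receptor genes are shown as examples, each with a match. NF-kB and STAT factors, which act below TNF receptors and the IL-2 receptor, have well-known motifs. *Ctla4*, *Tnfrsf4*, *Tnfrsf1b* and *Cd27* rose as well, and their windows are not shown. Capitals mark matches to the NF-kB letters GGGNNTTCC (GGAANNCCC on the other strand) or the STAT letters TTCNNNGAA (the same on both strands). The sequences are from RefSeq (GRCm38.p6), 250 bases before the start, read along the gene's strand. *Il2ra* is at chr2:11642542-11642791 (plus strand), *Tnfrsf9* at chr4:150927749-150927998 (plus strand) and *Tnfrsf18* at chr4:156026072-156026321 (plus strand).
Il2ra: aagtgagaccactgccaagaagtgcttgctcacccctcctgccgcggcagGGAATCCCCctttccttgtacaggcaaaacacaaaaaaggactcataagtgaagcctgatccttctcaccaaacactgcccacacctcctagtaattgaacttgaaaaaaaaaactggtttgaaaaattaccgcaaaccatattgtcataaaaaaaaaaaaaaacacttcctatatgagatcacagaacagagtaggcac
Tnfrsf9: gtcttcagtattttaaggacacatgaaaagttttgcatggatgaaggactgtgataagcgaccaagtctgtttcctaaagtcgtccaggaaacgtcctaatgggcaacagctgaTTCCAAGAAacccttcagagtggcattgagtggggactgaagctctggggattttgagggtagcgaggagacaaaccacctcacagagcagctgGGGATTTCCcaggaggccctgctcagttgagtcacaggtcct
Tnfrsf18: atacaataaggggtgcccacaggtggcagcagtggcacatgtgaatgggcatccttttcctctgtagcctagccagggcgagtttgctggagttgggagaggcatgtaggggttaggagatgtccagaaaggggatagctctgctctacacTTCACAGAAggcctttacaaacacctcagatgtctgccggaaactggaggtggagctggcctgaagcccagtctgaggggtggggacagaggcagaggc
*Il2ra* had 1 NF-kB match at position -200 from the start, *Tnfrsf9* had a STAT match at -136 and an NF-kB match at -42, and *Tnfrsf18* had 1 STAT match at -99. Over all 32851 such windows, 4.98% held the NF-kB letters and 7.02% the STAT letters. Among windows of the genes that rose, the shares were 10.7% and 8.74%, and among those of the genes that fell 4.55% and 6.82%. Of 12 windows of the Treg identity list, 1 held the NF-kB letters and 1 the STAT letters (8.33% each). Of 14 windows of the TNF receptor family, 2 held the NF-kB letters (14.3%) and 6 the STAT letters (42.9%). A match is a run of letters, not a measured binding site.

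Of the effector and tissue Treg genes, 7 of 19 tested rose, *Areg* included, and 1 fell, with a median log2 fold of 0.70. *Il10*, an anti-inflammatory cytokine, had 45, 11 and 100 UMIs in Tregs of the 3 libraries and 1, 0 and 2 in conventional cells (log2 fold 4.72, SE 0.53, adjusted p 4.24e-07). *Klrg1*, a receptor of differentiated effector cells, was at 83.5, 139 and 169 CPM against 9.97, 3.43 and 9.25 CPM (3.85, SE 0.42, adjusted p 3.19e-07). *Gzmb*, the cytotoxic protease granzyme B, was at 880, 1950.2 and 2193.9 CPM against 376, 233 and 1619 CPM (1.41, adjusted p 0.000972), so the groups came closest in the T cell sort ZsG-positive library. *Dusp4*, a phosphatase of the MAP kinase pathway, also rose (1.14, adjusted p 0.0419). *Il18r1*, a chain of the IL-18 receptor, fell (-1.42, adjusted p 0.000494). *Lag3* and *Icos*, further receptors of activated T cells, did not pass: *Lag3* was at 80.9, 11.1 and 132 CPM in Tregs and 47.3, 13.7 and 92.5 CPM in conventional cells, and *Icos* at 749, 778 and 667 CPM against 453, 693 and 518 CPM. *Pdcd1*, which encodes the inhibitory receptor PD-1, was at 67.9, 77.8 and 118 CPM against 159, 165 and 125 CPM (-0.81, adjusted p 0.0499), under the fold of 2. The transcription factors *Batf* (log2 fold 0.75, adjusted p 0.0414) and *Maf* (0.70, adjusted p 0.0367) stayed under the fold of 2. *Il1rl1*, the IL-33 receptor of tissue Tregs, was too low to be tested, with 7, 14 and 44 UMIs in Tregs against 3, 1 and 5.

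*Neb* and *Snx9* were also among the largest rises and belong to none of the lists. *Neb*, which encodes the muscle filament protein nebulin, had 20, 11 and 53 UMIs in Tregs and 1 UMI in conventional cells of each of the 3 libraries (log2 fold 3.94, adjusted p 2.39e-05). *Snx9*, a sorting nexin of endocytosis, had 39, 11 and 79 UMIs against 9, 0 and 1 (2.99, adjusted p 8.07e-05). Both were higher in Tregs in each library.

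The genes that fell were led by T cell help. Of the conventional helper and effector genes, 6 of 11 tested fell and none rose, with a median log2 fold of -1.36. Without the cells over the limit 7 of the 11 fell, with a median of -2.06, the chemokine gene *Ccl3* being added (-2.84, adjusted p 0.011). The fall of *Ccl3* rested on the T cell sort ZsG-positive library. With all other cells kept and that library left out, its log2 fold was above 0. *Cd40lg*, the CD40 ligand with which helper T cells activate B cells and dendritic cells, had 0, 1 and 8 UMIs in Tregs and 18, 43 and 27 in conventional cells, or 0, 5.56 and 9.72 CPM against 44.9, 148 and 125 CPM (log2 fold -4.13, SE 0.45, adjusted p 3.19e-07). *Tnfsf11* (RANKL) fell with 1, 0 and 10 UMIs against 13, 21 and 19 (-3.28, adjusted p 3.85e-05), and *Tnfsf8* (CD30 ligand) with 9, 1 and 1 UMIs against 32, 20 and 10 (-2.78, adjusted p 0.000374). *Fasl*, the death ligand of effector T cells, fell from 110, 148 and 125 CPM to 39.2, 38.9 and 12.1 CPM (-2.28, adjusted p 4.22e-05). These ligands were thus lower in Tregs in each of the 3 libraries.

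*Cxcr6*, a chemokine receptor of effector and resident T cells, was at 54.8, 111 and 58.3 CPM in Tregs and 299, 271 and 287 CPM in conventional cells (-2.12, adjusted p 3.88e-07). The chemokine receptor gene *Ccr2*, by contrast, rose (1.07, adjusted p 0.0043). *Ifng* (interferon gamma) was uneven, at 18.3, 133 and 487 CPM in Tregs and 162, 117 and 1087.1 CPM in conventional cells (-1.27, adjusted p 0.00455). Without the CD45 sort ZsG-negative library its log2 fold was -0.78 and did not pass, nor did it in DESeq2 (-1.36, adjusted p 0.66). The chemokine gene *Xcl1* (-3.40, adjusted p 1.56e-06) rested on the conventional cells of the T cell sort ZsG-positive library, at 4066.1 CPM. It was at 47.3 and 68.7 CPM in those of the other 2 libraries, and without that library its log2 fold was -1.50 with an adjusted p of 0.0614. DESeq2 gave *Xcl1* an adjusted p of 0.234, and it did not pass without the cells holding a *Cd8a* UMI.

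Genes of naive and recirculating T cells fell as well, 7 of 10 tested with none that rose, at a median log2 fold of -1.20. *Tcf7*, which encodes the transcription factor TCF-1 of resting and stem-like T cells, was at 54.8, 0 and 12.1 CPM in Tregs and 120, 179 and 167 CPM in conventional cells (-2.74, SE 0.42, adjusted p 5.56e-05), a call that DESeq2 did not make (-3.69, adjusted p 0.134). *S1pr1*, the receptor that lets T cells leave tissues, was at 47.0, 77.8 and 37.7 CPM against 142, 251 and 153 CPM (-1.84, adjusted p 9.96e-06). *Klf2*, which drives *S1pr1*, was lower in 2 of the 3 libraries and at 306 CPM against 295 CPM in the T cell sort ZsG-negative library (-1.30, adjusted p 0.00097). *Satb1*, *Foxp1*, *Ly6c2* and *Il7r* fell with log2 folds of -1.45, -1.03, -1.13 and -1.26. *Foxp1* did not pass without the cells over the limit (-0.93). Other falls named by size were *Ehd3* (-2.85), *Ramp3* (-2.54) and *Pde3b* (-2.32).

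Broad cellular programs held few genes that passed in edgeR's test. No gene passed among 74 nuclear oxidative phosphorylation genes, 21 interferon alpha/beta response genes, 14 immediate early genes and 76 ribosomal protein genes, with median log2 folds of 0.02, -0.04, -0.06 and -0.30. At an unadjusted p under 0.05 there were 2, 6, 7 and 35 of them, where all genes gave 17.5%, and 71 of the 76 ribosomal genes had a log2 fold below 0. Without the cells over the limit the immediate early gene *Egr1* fell (-1.28, adjusted p 0.0299). Of 20 interferon gamma response genes *Gbp3* rose (1.30, adjusted p 0.0088), and of 12 NF-kB response genes the adhesion molecule *Icam1* (1.25, adjusted p 0.000689). All 13 glycolysis genes had a log2 fold above 0, with a median of 0.43, and 8 reached an unadjusted p under 0.05 while none was called.

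Class II genes rose on the strength of few cells. *H2-Aa*, *H2-Ab1*, *H2-Eb1* and the invariant chain *Cd74*, 4 of the 5 class II genes tested, rose in the fit of all cells, and the 13 cells held 98.3% and 97.4% of the class II and *Siglech* UMIs of the Tregs in their libraries. Without the cells over the limit, 13 Tregs and 4 conventional cells, only *Cd74* could be tested, and it still rose (log2 fold 2.54, adjusted p 0.000132), at 127, 106 and 212 CPM in Tregs against 32.8, 10.3 and 25.2 CPM. With cycling cells kept in both groups, *Cd74* was at 0.87 and under the fold of 2. *Cst3*, an abundant gene of dendritic cells and macrophages, rose with all cells (2.09, adjusted p 8.85e-06) and did not pass without the cells over the limit in either group (0.38, adjusted p 0.436). The immunoglobulin genes *Igkc* and *Ighm* rose in both fits (2.28 and 1.13 with all cells, 4.61 and 1.62 without the cells over the limit). *Igkc* had 31, 39 and 94 UMIs in Tregs against 8, 1 and 12, while *Cd79a* and *Ms4a1*, the defining genes of B cells, had none in any library. The part of other cells' RNA in these 2 rises was not tested.

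Tregs took a larger share of Tregs plus conventional CD4 T cells in the ZsG-positive gate of the T cell sort. Tregs needed no *Cd4* UMI for this count, while conventional cells did. They were 94 of 137 cells (68.6%, exact binomial interval 60.1% to 76.3%) in the ZsG-positive library and 28 of 86 (32.6%, 22.8% to 43.5%) in the ZsG-negative library, a log2 ratio of 1.08 (0.61 to 1.54). Of all T cells they were 15.2% against 4.63%, a log2 ratio of 1.72 (1.13 to 2.31). In the CD45 sort the shares of Tregs plus conventional cells were 4 of 7 (57.1%, 18.4% to 90.1%) and 36 of 90 (40.0%, 29.8% to 50.9%), a log2 ratio of 0.51 (-0.48 to 1.51) that covers 0. The myeloid limit bore unequally on these gates. It removed 46 of 70 quality-passed cells with a *Foxp3* UMI in the ZsG-positive library and 12 of 89 in the ZsG-negative one. In the T cell sort it removed 9 of 142 and 0 of 38. With no myeloid UMI allowed, the CD45 sort ZsG-positive library kept no Treg and no conventional cell. With 1 library per gate no test was possible, and the intervals cover counting error only. With a *Cd4* UMI and no *Cd8a* UMI required of every cell counted, the shares were 52 of 91 (57.1%) against 10 of 68 (14.7%) in the T cell sort and 4 of 7 (57.1%) against 17 of 67 (25.4%) in the CD45 sort. With that required of the Tregs alone, the log2 ratios were 1.90 (1.03 to 2.76) and 1.25 (0.15 to 2.36). The interval of the CD45 sort then lay above 0, but it rests on 4 of 7 cells in the ZsG-positive library. Intervals of the share ratios are normal approximations on the log scale, which are rough at such counts.

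**Figure D4:**
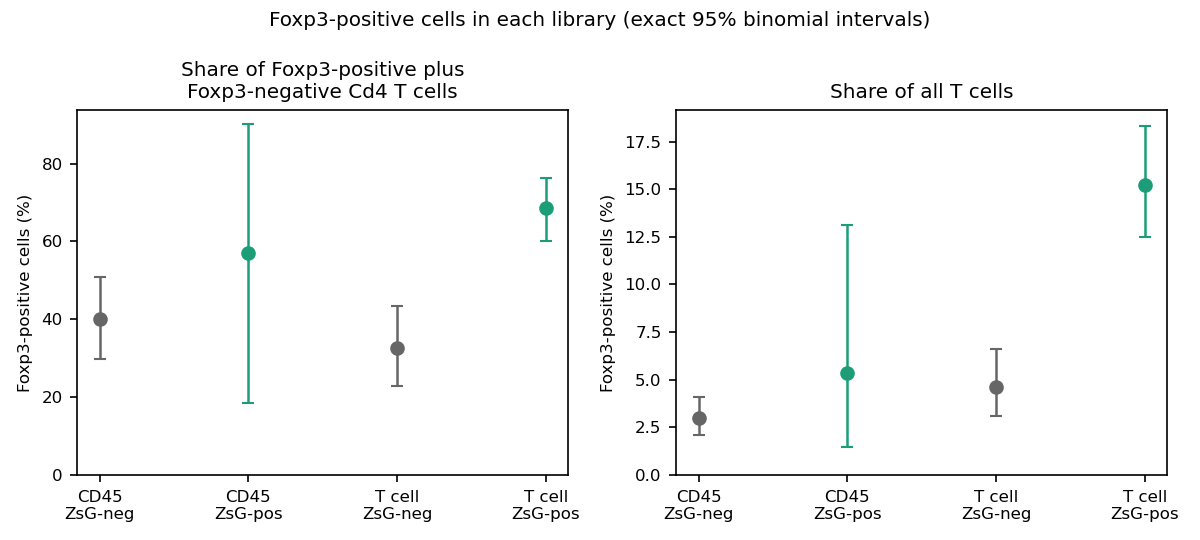
The share of Tregs in percent (y axis) is given for each library (x axis), out of Tregs plus conventional CD4 T cells on the left and out of all T cells on the right, with exact 95% binomial intervals. In the T cell sort the intervals of both gates were apart in both panels, and in the CD45 sort, with 4 Tregs in the ZsG-positive library, they overlapped.

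Within Tregs of the T cell sort, most glycolysis, oxidative phosphorylation and proteasome genes were higher in ZsG-positive than in ZsG-negative cells, the latter 2 lists mostly by less than 2-fold, and most interferon-induced and immediate early genes were lower, while the intervals of *Ikzf2*, *Ctla4*, *Areg* and *Il2ra* held 0. Of 5110 genes with at least 20 UMIs, 469 (9.18%) were at least 2-fold higher and 331 (6.48%) at least 2-fold lower, with no test. With TMM scaling, which moved the median log2 ratio of all genes from -0.03 to 0.08, the counts were 551 and 242. Without the cells over the limit they were 329 and 288 of 4559 genes. Ratios are of CPM with 0.5 added to each sum, and their intervals are exact conditional 95% intervals for counting error only.

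*Ikzf2* differed by a log2 ratio of -0.10 (-0.30 to 0.12), *Ctla4* by 0.02 (-0.18 to 0.22), *Areg* by -0.18 (-0.47 to 0.12) and *Il2ra* by 0.15 (-0.26 to 0.60). These intervals hold 0 and leave room for differences of less than 2-fold. The median over 15 Treg identity genes was 0.17. *Tnfrsf4* and *Capg* were higher in ZsG-positive Tregs, by 0.53 (0.34 to 0.72) and 0.67 (0.38 to 0.99). The ectonucleotidase gene *Entpd1*, which encodes CD39, stood out with 58 UMIs against 3 (1.87, 0.46 to 4.40), and *Lag3*, an inhibitory receptor, with 109 against 2 (3.26, 1.69 to 6.64). *Il10* was at 121 CPM against 61.1 CPM (0.93, 0.09 to 2.04). *Nrp1* was lower, at 24.3 CPM against 61.1 CPM (-1.36, -2.46 to -0.12).

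Of 14 glycolysis genes 12 were higher in ZsG-positive Tregs, 5 of them by at least 2-fold, with a median log2 ratio of 0.65. *Pkm*, which encodes pyruvate kinase, was at 1025.3 CPM against 478 CPM (1.09, 0.78 to 1.44), *Tpi1* at 534 CPM against 211 CPM (1.32, 0.86 to 1.86) and *Gapdh* at 2651.8 CPM against 1455.7 CPM (0.86, 0.68 to 1.06). *Pgam1* (1.56), *Pgk1* (1.08) and *Pfkl* were the other 3 at 2-fold, while the glucose transporter gene *Slc2a1* was at -0.56 (-1.62 to 0.76). The median was 0.68 without the cells over the limit and 0.40 with cycling cells kept. In conventional CD4 T cells of the same libraries it was 0.17. In the CD45 sort all 12 genes with enough UMIs were higher in the 4 ZsG-positive Tregs, with a median of 0.51.

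Of 74 nuclear genes of oxidative phosphorylation 63 were higher, with a median of 0.29 against -0.02 in conventional cells, and 3 passed 2-fold, a smaller share than the 9.18% of all genes. Of these, *Sdhd*, a subunit of complex II, was at 1.40 (0.23 to 3.20) and *Ndufa5*, of complex I, at 1.33 (0.37 to 2.66), while *Cox6a2*, with 55 UMIs against 1 (3.02, 1.05 to 8.92), had 1 UMI in each gate without the cells over the limit. Of the mitochondrially encoded genes 11 of 12 were lower, with a median of -0.21, while in the CD45 sort 10 of 12 were higher, with a median of 0.44. Of 17 proteasome genes 15 were higher, none by 2-fold, with a median of 0.45 against 0.01, among them the immunoproteasome subunit *Psmb9* at 0.89 (0.50 to 1.33). With cycling cells kept, the medians of both lists were 0.10 and 0.11.

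Of 21 interferon alpha/beta response genes 18 were lower in ZsG-positive Tregs, 5 of them by at least 2-fold, with a median of -0.57. *Ifit1*, which binds viral RNA, was at 126 CPM against 417 CPM (-1.72, -2.16 to -1.27), *Ifi206* at 82.6 CPM against 311 CPM (-1.92, -2.44 to -1.38) and *Ifi203* at 422 CPM against 867 CPM (-1.04, -1.32 to -0.76). Not all members followed: *Ifi27l2a*, at 5960.8 CPM against 5867.2 CPM, was at 0.02 (-0.07 to 0.12), and *Bst2* at 0.52. Over the alternatives run the median lay between -1.11 and -0.39. Conventional CD4 T cells showed the same side, with 18 of 22 genes lower and a median of -0.40. Of 20 interferon gamma response genes 16 were lower (median -0.32, and 0.25 after thinning each cell to 2000 UMIs).

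The chemokine gene *Cxcl10*, an interferon target that draws in CXCR3+ T cells, had 101 UMIs over 19 of the ZsG-positive Tregs and 122 UMIs over 10 of the ZsG-negative ones, or 123 CPM against 678 CPM (-2.46, -2.86 to -2.07). A single ZsG-negative cell held 51.6% of its UMIs there. In the CD45 sort it had 1 UMI in the 4 ZsG-positive Tregs and 167 in the 36 ZsG-negative ones, an exact log2 ratio of -3.90 (-9.22 to -1.41). Its window and that of *Isg15*, another interferon-induced gene, are shown for the interferon-stimulated response element, searched as GAAANNGAA (TTCNNTTTC on the other strand). Capitals mark matches to it or, in *Cxcl10*, to the NF-kB letters. *Cxcl10* is at chr5:92348890-92349139 (minus strand) and *Isg15* at chr4:156200819-156201068 (minus strand).
Cxcl10: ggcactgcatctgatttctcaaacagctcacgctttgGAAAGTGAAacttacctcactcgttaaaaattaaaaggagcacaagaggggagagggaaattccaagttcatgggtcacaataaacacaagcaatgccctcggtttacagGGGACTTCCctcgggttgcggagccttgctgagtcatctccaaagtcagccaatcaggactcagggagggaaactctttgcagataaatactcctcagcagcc
Isg15: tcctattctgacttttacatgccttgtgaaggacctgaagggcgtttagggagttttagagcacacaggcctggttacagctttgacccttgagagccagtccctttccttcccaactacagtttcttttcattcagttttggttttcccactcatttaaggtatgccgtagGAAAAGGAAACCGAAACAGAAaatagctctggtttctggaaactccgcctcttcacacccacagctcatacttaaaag
*Cxcl10* held 1 match of the element at -213 and 1 NF-kB match at -103, and *Isg15* held 3 matches of the element, each overlapping the next, at -78, -72 and -66. The letters of the element occurred in 7.13% of all windows and in 47.8% of those of the interferon alpha/beta list. *Isg15* itself was at 649 CPM against 850 CPM (-0.39, -0.65 to -0.12), and at -0.13 without the cells over the limit.

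Immediate early genes, which follow T cell receptor signals within minutes, were lower in ZsG-positive Tregs, 12 of 14 with a median of -0.52 against -0.13 in conventional cells. *Nr4a1* was at 236 CPM against 439 CPM (-0.90, -1.28 to -0.50), *Cd69* at 243 CPM against 472 CPM (-0.96, -1.33 to -0.58) and *Junb* at 1454.1 CPM against 2339.1 CPM (-0.69, -0.85 to -0.52). *Nr4a3* and *Jun* were the 2 past 2-fold, at -1.18 and -1.01. The heat shock list was lower too, with a median of -0.68, including *Hsp90aa1* at -0.68 (-0.95 to -0.41) and *Dnaja1* at -0.82 (-1.08 to -0.55). Its median was 0.09 when cells with a *Cd8a* UMI were left out, -0.05 when a *Cd4* UMI was also required, and 0.46 in the CD45 sort.

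Among effector cytokine genes the gates differed in both directions. *Xcl1* had 220 UMIs in ZsG-positive Tregs, 99.1% of them in 1 cell, and none in ZsG-negative ones. *Ccl4* had 578 against 39 (1.68, 1.23 to 2.20) and *Ifng* 401 against 24 (1.84, 1.27 to 2.53). The *Ifng* ratio turned to -0.94 when cells with any *C1qa*, *C1qb* or *Lyz2* UMI were left out. *Ccl5* was lower, at 694 CPM against 1877.9 CPM (-1.44, -1.63 to -1.24), with 45.6% of the ZsG-negative UMIs in 1 cell, and also lower in the CD45 sort (-1.86). *Cd8b1* and *Cd8a* were lower, with 29 against 40 UMIs (-2.65, -3.40 to -1.93) and 22 against 25 UMIs (-2.37, -3.27 to -1.49). In the ZsG-negative library they came from 5 and 4 of the 28 ZsG-negative Tregs. In conventional cells the same genes were higher in the ZsG-positive library, with 37 *Cd8a* UMIs against 0.

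**Figure D5:**
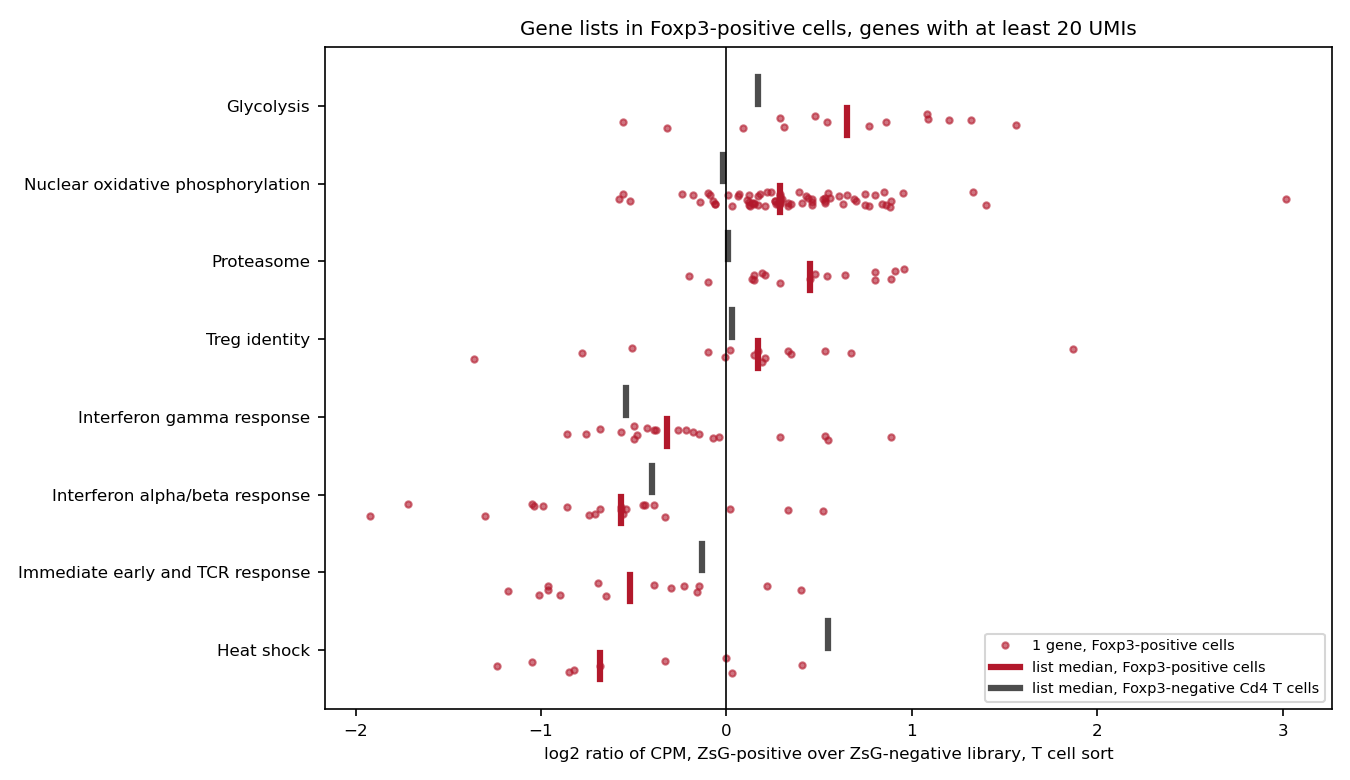
Each red point is 1 gene's log2 ratio of CPM in ZsG-positive over ZsG-negative Tregs of the T cell sort (x axis), by gene list (y axis), with thick bars for the list median in Tregs (red) and in conventional CD4 T cells (grey). Medians in Tregs were 0.65 for glycolysis, 0.29 for oxidative phosphorylation, 0.45 for the proteasome, 0.17 for Treg identity, -0.32 and -0.57 for both interferon lists, -0.52 for immediate early genes and -0.68 for heat shock.

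Genes were ranked by ratio if 10% or more of the Tregs in 1 of the gates held a UMI of them, and the highest 10 were mostly of other cells or of cell division. *H2-Aa* and *H2-Ab1* had 301 and 287 UMIs in ZsG-positive Tregs and 0 in ZsG-negative ones, at least 21.9-fold and 20.9-fold higher, and 1 cell held 72.8% and 85.4% of these UMIs. Of these, 6 and 14 UMIs were left without the cells over the limit. *Tyrobp* had 203 UMIs against 1 (4.89, 2.98 to 10.78) and 3 against 1 without them, and *Ctsh*, at 72 against 0 or at least 5.25-fold higher, had 4 against 0. In this sort the cells over the limit were all in the ZsG-positive library, and in the CD45 sort all in the ZsG-negative one. Over the 15 macrophage and monocyte genes the summed level was 428 CPM in ZsG-negative Tregs, led by *Ctss*, and 1941.2 CPM in ZsG-positive ones, led by *Cst3*, which became 819 CPM without the cells over the limit. *Birc5*, *Ccnb2*, *Pclaf* and *Lig1*, genes of dividing cells, had 66, 62, 60 and 53 UMIs against 0. The limit for cycling cells bears on them: *Birc5*, *Ccnb2* and *Pclaf* were at -0.14, -0.20 and -0.04 with cycling cells kept.

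*Cxcl2*, a chemokine that draws in neutrophils, and *Mt1*, the metal-binding metallothionein, kept most of their UMIs without the cells over the limit. *Cxcl2* had 264 UMIs over 14 ZsG-positive Tregs and none in ZsG-negative ones, at least 19.2-fold higher, and 187 UMIs without the cells over the limit, at least 17.1-fold higher. *Mt1* had 212 UMIs over 35 cells against 1 UMI (4.95, 3.04 to 10.84), and was at 5.09 without them, but at -0.82 with cycling cells kept. Of the lowest ratios, *Kdm6b*, a histone demethylase gene, was at 53.4 CPM over 26 cells against 206 CPM over 13 cells (-1.95, -2.61 to -1.27). *Mmp9*, *Usp38*, *Pias1*, *Gzma*, *Snap29* and *Mirt1* lay between -2.19 and -1.96. The 5 melanocyte pigment genes had 10 UMIs in ZsG-positive Tregs and 1 in ZsG-negative ones of the T cell sort and none in either CD45 library. Scaled to the totals, the T cell sort gave 12.1 CPM (5.83 to 22.3) against 5.56 CPM (0.141 to 31), and these intervals overlapped.

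Tregs also differed among themselves. After thinning each of 161 Tregs to 2000 UMIs, so that depth is equal, *Ikzf2* was seen in 88.9%, 78.6% and 86.0% of the Tregs of the CD45 sort ZsG-negative, T cell sort ZsG-negative and T cell sort ZsG-positive libraries, and *Areg* in 27.8%, 32.1% and 28.0%. In conventional cells *Areg* was seen in 3.70%, 3.45% and 0%. The share of Tregs with *Areg* was thus similar in these 3 libraries, while none of the 4 Tregs of the CD45 sort ZsG-positive library had it. *Klrg1* was seen in 11.1%, 10.7% and 22.6% of the Tregs. *Areg* went with *Il1rl1*, the receptor of the alarmin IL-33: of 19 thinned Tregs with *Il1rl1*, 13 had *Areg* (68.4%), against 22.5% of those without. Of the 13, 11 were in the T cell sort ZsG-positive library (11 of 15 with *Il1rl1*, 73.3%, against 19.2%), and in the T cell sort ZsG-negative library 1 of 3 had *Areg* (33.3%, against 32.0%). *Klrg1* was in 26.7% of the Tregs with *Areg* and in 13.8% of the others. By library these shares were 10.0% and 11.5% in the CD45 sort ZsG-negative, 33.3% and 0% in the T cell sort ZsG-negative and 30.8% and 19.4% in the T cell sort ZsG-positive library. *Ikzf2* was in 93.3% of the Tregs with *Areg* and in 82.8% of those without. These are descriptions of cells that share 4 libraries, with no test.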

How the data were processed

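Single-cell RNA-seq libraries (10x Chromium 3′ v3.1) were aligned by the authors to mm10 with Cell Ranger (6.1.2 in the processing notes and the T cell matrix header, 7.0.0 in the CD45 matrix header), and the values used are the UMI counts they deposited per gene and cell. Cells of 1000 to under 6000 genes and under 10% mitochondrial UMIs (CD45 sort) or 50 to under 6000 genes and under 15% (T cell sort) were kept. Cells, gene lists and motifs were chosen with earlier results of these data known. UMIs were summed per library and group. Tregs and conventional cells were compared with edgeR 4.0.16 in R 4.3.3 (quasi-likelihood test, library as block, Benjamini-Hochberg adjustment). The CD45 sort ZsG-positive library, with 4 and 3 cells, did not enter the fit. On simulated data for this comparison all 173 changed genes tested, at 4-fold, were recovered with 5 false calls among 4115 genes. The 10 largest rises and falls called and on the same side in every library of the fit were named, beside the lists' genes. Some named genes are not reported here. ZsG gates, with 1 library each, were compared by values and counting intervals only. Alternatives included DESeq2 1.42.0. Positions are from GENCODE vM21 on GRCm38.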

Additional observations from a re-analysis of the deposited data

Results flagged for a closer look

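In the T cell sort 4 gene lists were flagged for opposite signs of the median ZsG-positive over ZsG-negative ratio in Tregs and conventional cells. Other lists had opposite signs too, such as the TGF-beta pathway (0.20 and -0.51) and the NF-kB response (-0.36 and 0.17). No difference was tested. The median log2 ratio of the heat shock list was -0.68 in Tregs and 0.55 in conventional cells, that of the Myc targets -0.05 and 1.21, that of the B cell markers -0.32 and 1.67, and that of the CD8 T cell markers -2.51 and 5.54. The 5.54 depends on the 0.5 added to an empty *Cd8a* sum, and it was 4.23 with 3 counts taken there. The Myc targets had no direction in Tregs, with 9 genes higher and 9 lower, the B cell list rests on 2 genes in Tregs and 1 in conventional cells, and the heat shock median in Tregs was 0.09 without cells holding a *Cd8a* UMI.

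Among genes of antigen-presenting and myeloid cells, 3 were flagged because the Tregs of the 2 sorts went opposite ways, and the difference was not tested. They were not the only ones. All 5 class II genes with at least 20 UMIs were at least 2-fold higher in ZsG-positive Tregs of the T cell sort. In the CD45 sort all 6 with enough UMIs were at least 2-fold lower. The log2 ratio was 7.04 in the T cell sort and -1.78 in the CD45 sort for *H2-Aa*, 6.97 and -2.14 for *H2-Ab1*, and 4.89 and -3.68 for *Tyrobp*. The values of *H2-Aa* and *H2-Ab1* in the T cell sort are set by the 0.5 added to each sum, since ZsG-negative Tregs had no UMI of either, and their bounds are at least 21.9-fold and 20.9-fold higher. *Tyrobp* had 1 UMI in the lower gate of each sort. The 13 Tregs over the limit of 5 class II and *Siglech* UMIs were all in the ZsG-positive library of the T cell sort and the ZsG-negative library of the CD45 sort.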

How the results depend on the processing

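Against 106 genes that rose and 89 that fell in Tregs, DESeq2 called 33 and 19, no filter beyond 1 UMI gave 165 that rose, summing the gates per sort 166 and 146, thinning to 2000 UMIs 55 and 32, cells of 3000 to 15000 UMIs 48 that fell, and keeping cycling cells 201 that fell. Leaving out 1 library at a time gave 18 to 105 and 12 to 83. It gave *Ccl3* folds of -2.03 to 2.55, *Cd8a* -1.47 to 2.98 and *Cd8b1* -1.56 to 1.23 on the log2 scale, above 0 only without the T cell sort ZsG-positive library. *Cox6a2* was at -1.37 with cycling cells kept. The log2 ratio of the Treg share in the T cell sort was 1.90 with a *Cd4* and no *Cd8a* UMI required. Against 469 genes at least 2-fold higher and 331 lower in ZsG-positive Tregs, thinning gave 152 and 79, at least 100 UMIs 71 and 31, and cycling cells kept 204 lower. With cycling cells kept, *Mt1* was at -0.82, *Birc5* -0.14, *Ccnb2* -0.20 and *Pclaf* -0.04. *Ifng* was at -0.94 without *C1qa*, *C1qb* or *Lyz2* UMIs, a setting chosen after the data were seen, as were those without the cells over the limit or without *Cd8a* UMIs. The causes were not tested. Of the ZsG list medians under other settings, 257 stayed within the spread and 50 moved. Tregs and conventional cells were compared within libraries in the main edgeR fit. The levels by *Foxp3* UMI and the total cycling shares were pooled over libraries, and the fit with gates summed per sort merged them. The ZsG gates were not fitted with the sort as a block. Few cells, no replicate animals and a contradictory gate order in the T cell sort limit every gate comparison.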

Other observations

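Foxp3-positive T cells left out of the Treg rule for their cycling genes were frequent. Of 254 Foxp3-positive T cells that met the other limits, 92 (36.2%, exact binomial interval 30.3% to 42.5%) held at least 3 UMIs of *Mki67*, a proliferation marker, and *Top2a*, a topoisomerase of dividing cells, against 21 of 179 conventional CD4 T cells (11.7%, 7.41% to 17.4%). By library the shares were 52.0%, 63.6%, 24.3% and 28.2% in the CD45 sort ZsG-negative and ZsG-positive and the T cell sort ZsG-negative and ZsG-positive libraries, against 16.9%, 57.1%, 6.45% and 4.44%. The cycling cells were deep, with a median of 19964.5 UMIs. After thinning to 2000 UMIs, 30.8% of the Foxp3-positive and 12.9% of the conventional cells held a UMI of either gene. In the same library order these shares were 42.7%, 63.6%, 13.5% and 26.2% against 15.4%, 42.9%, 11.3% and 6.82%, closest in the T cell sort ZsG-negative library. In the cycling Foxp3-positive cells *Ikzf2* was at 841 CPM, *Il2ra* at 306 CPM, *Areg* at 126 CPM and *Klrg1* at 58.4 CPM.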
